A study of Mus musculus with 8 samples.

Results

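Heterotrimeric G proteins, the RGS proteins that switch them off and the adenylyl cyclases that they control were examined as RNA in the hippocampus of mice given FTY720 (fingolimod) or saline. The members were all genes of the array whose symbol begins with Gna, Gnb, Gng, Rgs or Adcy in the form of a family member, each read by 1 probe set. They numbered 51 of 12393 genes tested. Among them were 14 G alpha genes, 5 G beta genes, 7 G gamma genes, 17 RGS genes and 7 adenylyl cyclase genes. The remaining member, Gnasas1, is an antisense RNA of the Gnas locus that meets the symbol rule but encodes no G protein, and it is kept outside the families.

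The tested mice were 4 male SCID mice aged 12 weeks that received FTY720 by mouth at 1 mg/kg in saline on 3 days, and the controls were 4 male SCID mice of the same age that received oral saline on 3 days. All 8 went through contextual fear conditioning, and their tissue was taken 17 hours past the last dose, which was 1 hour past the test of consolidation. SCID mice lack mature B and T lymphocytes, so both groups share that defect. Each mouse gave 1 Affymetrix 3' array made from its own hippocampal RNA, and the number of mice limits the precision. Mice are called FTY720 1, 4, 5 and 6 and vehicle 13 to 16, after their labels.

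A G protein is a trimer of alpha, beta and gamma subunits that an activated receptor opens by exchanging GDP for GTP on the alpha subunit. Alpha subunits of the Gs class stimulate adenylyl cyclase, those of the Gi/o class inhibit it, and those of the Gq class activate phospholipase C beta. RGS proteins speed up GTP hydrolysis and so shorten the signal. In the hippocampus, cyclic AMP made by adenylyl cyclases acts through protein kinase A and is known for its part in long-term memory. The phosphate form of FTY720, made by kinases of the body, is an agonist of receptors for sphingosine-1-phosphate, which couple to Gi and, for some of them, also to Gq and to G12 class proteins.

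Values are log2 expression values per probe set, as deposited, and differences are FTY720 minus vehicle on that scale. Of 10 hippocampal markers, 6 were measured and 5 of them lay above 7.17, the median level of all genes. Of the controls, vehicle 15 lay apart along the leading principal component (35.7% of variance) and vehicle 16 along the next (19.6%). The mean of 7 measured striatum markers, relative to the mean of all 8 mice, ran from -0.36 to -0.20 across FTY720 mice and from -0.33 to 1.45 across vehicle mice, with vehicle 15 highest and vehicle 16 next at 0.34. The mean of 9 thalamus and habenula markers ran from -0.453 to -0.214 across FTY720 mice and reached 1.34 in vehicle 15. In vehicle 13, 14 and 16 it stood at 0.0074, 0.185 and -0.217. Of these 9 differences 8 were negative, 4 of them at an unadjusted p under 0.05 (2.78% of all genes were lower at that p). The mean of 8 choroid plexus markers ran from -1.21 to 0.841 across FTY720 mice and from -0.912 to 1.39 across vehicle mice, with vehicle 15 highest. Vehicle 16 was highest for 8 neocortex markers (0.56) and for 11 immediate early genes (0.86). The mean of 9 oligodendrocyte markers ran from -0.32 to -0.08 across FTY720 mice and from -0.06 to 0.37 across vehicle mice. In whole tissue, fewer cells of a type and less RNA per cell cannot be told apart. The part of these lists in the differences below was not tested. Values without a mouse, or with the striatum list as a covariate, are given for some members. They cannot tell one list from another, or from anything else that sets vehicle 15 or 16 apart.

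With p-values adjusted over all genes, limma called none of the 51 members at 0.05, beside 0% of all genes, and the smallest adjusted p of a member was 0.634. At an unadjusted p under 0.05 stood 6 members (11.8%), beside 6.64% of all genes. These were Adcy6, Adcy3, Rgs19 and Gnaq with higher values and Gng11 and Rgs10 with lower values in FTY720 mice, where all genes gave 3.86% higher and 2.78% lower. In 4 members (7.84%) the 2 groups showed no overlap, beside 4.49% of all genes. FTY720 mice were the higher ones for Adcy3 and Adcy6 (2.72% of all genes) and the lower ones for Gng11 and Rgs10 (1.78% of all genes). The differences were small: 3 members, Rgs9, Rgs10 and Gnb4, reached 1.2-fold, all of them lower in FTY720 mice and highest in vehicle 15. The share of all genes at 1.2-fold was not counted. By family the median difference was 0.03 for G alpha, -0.02 for G beta, 0.07 for G gamma, -0.09 for RGS and 0.04 for adenylyl cyclase genes, with 0.01 for all genes. Without vehicle 15 and 16 together the RGS median was -0.009, the G gamma median 0.020 and the G alpha median -0.014. The adenylyl cyclase median was then 0.042 and the G beta median -0.059.

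**Figure D1:**
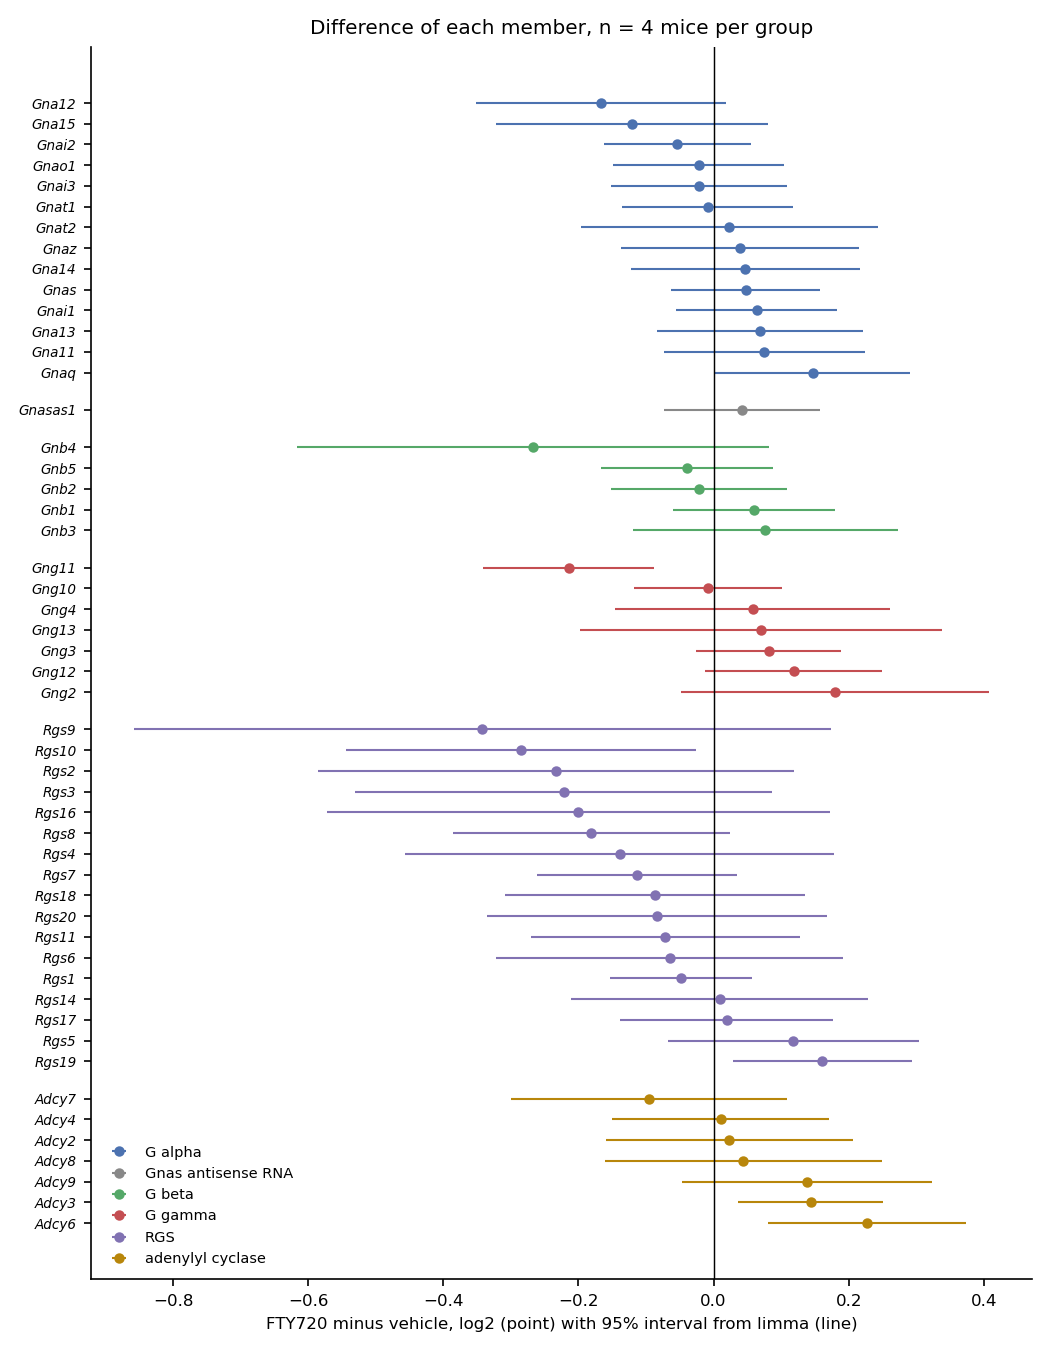
FTY720 minus vehicle difference of each of the 51 members on the log2 scale (points) with its 95% interval from limma (lines), n = 4 mice per group, coloured by family. The interval lies wholly above 0 for Adcy6, Adcy3, Rgs19 and Gnaq and wholly below 0 for Gng11 and Rgs10.

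Adenylyl cyclases turn ATP into cyclic AMP. Of the 7 genes measured, 6 had a positive difference (85.7%, beside 53.5% of all genes) and 1 a negative one. Vehicle 15 was the lowest of the 8 mice in 5 of the 7 (71.4%, beside 23.6% of all genes), and without it 3 of the 7 were negative and the median was 0.00176. Without vehicle 15 and 16 together 3 of the 7 were negative and the median was 0.0424. With all mice 2 (28.6%, beside 6.64% of all genes) stood at an unadjusted p under 0.05, both higher in FTY720 mice. Adcy6, a cyclase inhibited by calcium and by Gi, had log2 values of 8.34, 8.32, 8.38 and 8.28 in FTY720 1, 4, 5 and 6, against 8.13, 8.21, 7.92 and 8.14 in vehicle 13, 14, 15 and 16. Every FTY720 mouse lay above every vehicle mouse, and vehicle 15 was lowest. The means were 8.33 ± 0.04 in FTY720 mice and 8.10 ± 0.12 in vehicle mice (SD, n = 4 each), a log2 difference of 0.23 (SE 0.07, 95% interval 0.08 to 0.37, limma adjusted p = 0.698), or 1.17-fold. Without vehicle 15 the log2 difference of Adcy6 was 0.17.

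Adcy3, a calcium-stimulated cyclase that is found in neuronal cilia, had values of 8.66, 8.65, 8.68 and 8.64 in FTY720 mice, against 8.55, 8.42, 8.53 and 8.56 in vehicle mice 13 to 16. The groups did not overlap here either, and vehicle 14 was lowest. Adcy3 differed by 0.14 (SE 0.05, 95% interval 0.04 to 0.25, limma adjusted p = 0.719), and it was 0.17 without vehicle 15 and 16. All 4 probe sets of Adcy3 had a positive difference, between 0.09 and 0.14. Adcy3 and Adcy6 kept an unadjusted p under 0.05 and their sign in each of 18 alternative fits, while their limma adjusted p stayed at or above 0.435. The log2 differences lay between 0.11 and 0.17 for Adcy3 and between 0.15 and 0.29 for Adcy6. These fits reuse the same mice and are not separate checks. Adcy6 has 1 probe set, so its difference was 0.227 under every choice of probe set, and also with the filter on dim genes and the trended and robust fits.

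Adcy9, a cyclase that responds only weakly to forskolin, had values of 10.09, 10.20, 10.12 and 10.24 in FTY720 mice, against 10.10, 10.13, 9.77 and 10.08 in vehicle mice. Vehicle 15 was low, vehicle 13 and 14 lay among the FTY720 mice, and vehicle 16 lay just below them. This gave a difference of 0.14 (SE 0.08) and was 0.05 without vehicle 15. A second Adcy9 probe set gave 10.02, 10.08, 9.99 and 10.02 in FTY720 mice, against 9.96, 9.95, 9.42 and 9.70 in vehicle mice, which did not overlap (log2 difference 0.27, SE 0.11). The third probe set of Adcy9 stood at 0.20 (SE 0.09), so all 3 were positive.

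The other cyclases differed by less than their spread. Adcy8, a calcium-stimulated cyclase that is known for a role in hippocampal plasticity in mice, stood at 0.04 (SE 0.09) and at -0.05 without vehicle 15 and 16. Adcy2, which G beta-gamma stimulates, stood at 0.02 (SE 0.08), and at -0.06 without vehicle 15, where it was lowest (9.59, with the other mice between 9.80 and 9.96). Adcy7 (-0.10, or 0.05 without vehicle 15 and 16) and Adcy4 (0.01) are of the same class and are named only to account for the family. The other 2 Adcy7 probe sets stood at -0.18 (SE 0.07), with no overlap of the groups, and at 0.13 (SE 0.07). Adcy1 and Adcy5 were not analysed here.

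**Figure D2:**
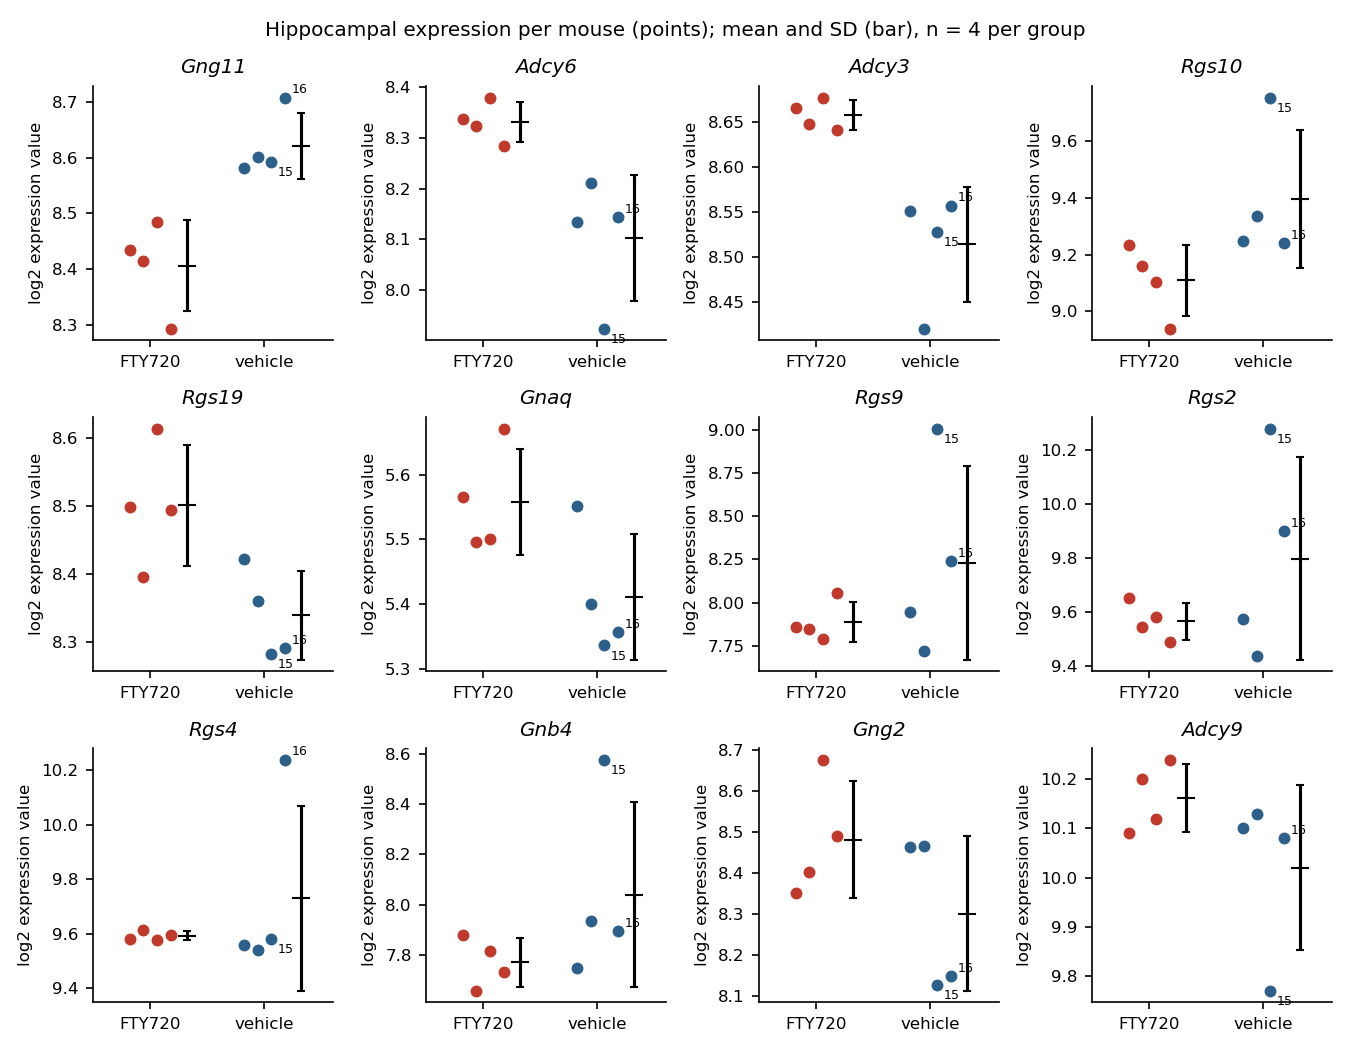
Log2 expression value of 12 members in each mouse (points, FTY720 on the left, vehicle on the right), with the mean and SD of the group beside them (bars, n = 4 each) and vehicle 15 and 16 numbered. Adcy6, Adcy3, Gng11 and Rgs10 show no overlap of the groups, and single vehicle mice carry the differences of Rgs9, Rgs4 and Gnb4.

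Of the alpha subunits, 8 genes had a positive (57.1%, beside 53.5% of all genes) and 6 a negative difference, between -0.17 and 0.15. At an unadjusted p under 0.05 stood 1 of 14 (7.14%, beside 6.64% of all genes). That 1 was Gnaq, the Gq class subunit, with values of 5.57, 5.49, 5.50 and 5.67 in FTY720 mice, against 5.55, 5.40, 5.34 and 5.36 in vehicle mice. The groups overlapped through vehicle 13, and the signal lay below the median level of all genes. Gnaq differed by 0.15 (SE 0.06, limma adjusted p = 0.748), and 0.08 without vehicle 15 and 16, where it was no longer among the members at an unadjusted p under 0.05. Gnaq kept that in 7 of 17 alternative fits. Gna11, the close relative of Gnaq, stood at 0.07 (SE 0.07), or 0.02 without vehicle 15. Gna14 (0.05) and Gna15 (-0.12, SE 0.09), Gq class subunits of narrower expression, were dim, both below the lower quartile of all genes.

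The Gi/o class, through which all sphingosine-1-phosphate receptors that bind the drug can signal, held 7 measured genes with a median difference of -0.01, or -0.04 without vehicle 15. Gnai1, the inhibitory subunit that is plentiful in brain, had values of 11.99, 12.01, 12.10 and 12.15 in FTY720 mice, against 11.96, 11.96, 12.07 and 12.01 in vehicle mice. FTY720 5 and 6 were highest and vehicle 15 was next, and the difference of Gnai1 was 0.06 (SE 0.05, 95% interval -0.06 to 0.18). The probe set taken for Gnai1 is of a type prone to cross-hybridisation, and the other probe sets of Gnai1 are not. Both of those others showed no overlap of the groups, with every FTY720 mouse above every vehicle mouse. The share of all probe sets without overlap was not counted, for Gnai1 or for the further probe sets of other members. The first of them gave 11.04, 11.09 and 11.13 in FTY720 4, 5 and 6, with FTY720 1 between these and the vehicle mice, against 10.94, 10.94, 10.96 and 10.96 in vehicle mice (difference 0.11, SE 0.05). The second gave 8.13, 8.16, 8.07 and 8.11 in FTY720 mice, against 7.95, 8.03, 7.88 and 7.85 in vehicle mice (difference 0.19, SE 0.06). With the mean of the 3 probe sets Gnai1 stood at 0.12 and at an unadjusted p under 0.05 (limma adjusted p = 0.690). Gnai2 stood at -0.05 (SE 0.05, interval -0.16 to 0.06), Gnai3 at -0.02 (SE 0.06, interval -0.15 to 0.11) and Gnao1, the Go subunit of neurons, at -0.02 (SE 0.06, interval -0.15 to 0.10). Another probe set of Gnao1 stood at -0.15 (SE 0.07), with overlapping groups. Gnaz, whose product is insensitive to pertussis toxin, stood at 0.04 (SE 0.08), or -0.04 without vehicle 15. The transducins Gnat1 (-0.01) and Gnat2 (0.02), which serve photoreceptors, were dim on all arrays, both below the lower quartile of all genes.

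Gnas, the stimulatory alpha subunit, had values of 12.84, 12.82, 12.82 and 12.83 in FTY720 mice, against 12.84, 12.82, 12.78 and 12.68 in vehicle mice. The FTY720 mice lay close together (SD 0.01) and overlapped vehicle 13 and 14, and vehicle 16 was lowest. Gnas differed by 0.05 (SE 0.05, 95% interval -0.06 to 0.16) and was 0.01 without vehicle 16. The antisense RNA Gnasas1 was dim, at 3.87 ± 0.02 in FTY720 mice and 3.82 ± 0.08 in vehicle mice (SD, n = 4 each), with a log2 difference of 0.04 (SE 0.05). Gnal, the stimulatory subunit of striatum and olfactory neurons, was not analysed here.

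Gna12, a widely expressed subunit of the G12 class, had values of 8.23, 8.23, 8.21 and 7.98 in FTY720 mice, against 8.32, 8.47, 8.15 and 8.36 in vehicle mice. Vehicle 15 lay among the FTY720 mice and FTY720 6 was lowest. The difference of Gna12 was -0.17 (SE 0.08, limma adjusted p = 0.766), -0.23 without vehicle 15 and -0.11 without FTY720 6. Gna12 stood at an unadjusted p under 0.05 without vehicle 15, and without vehicle 15 and 16. It did so too with quantile normalization, array weights or the striatum covariate, but not in the other alternatives. Of its 5 probe sets 3 were negative, and the mean of all 5 gave -0.03. Gna13, the other member of the class, stood at 0.07 (SE 0.07), or 0.03 without vehicle 15. Another Gna13 probe set stood at 0.16 (SE 0.05) with no overlap of the groups, and 4 of 6 probe sets were positive. Both this probe set and the one taken for Gna13 are of a type prone to cross-hybridisation.

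The gamma subunits carry the lipid anchor that holds the beta-gamma pair at the membrane. Gng11, a farnesylated gamma subunit, had the smallest p of all members. Its values were 8.43, 8.41, 8.48 and 8.29 in FTY720 mice, against 8.58, 8.60, 8.59 and 8.71 in vehicle mice. All 4 FTY720 mice lay below all vehicle mice, FTY720 6 lowest and vehicle 16 highest. The means were 8.41 ± 0.08 in FTY720 mice and 8.62 ± 0.06 in vehicle mice (SD, n = 4 each), a log2 difference of -0.21 (SE 0.06, 95% interval -0.34 to -0.09, limma adjusted p = 0.634). The log2 difference was -0.18 without vehicle 15 and 16, and -0.13 when the Gapdh 5' minus 3' value entered as a covariate, the only 1 of 18 alternative fits in which it did not keep an unadjusted p under 0.05. That RNA integrity measure was itself uneven, at -0.95 ± 0.14 in FTY720 mice and -1.20 ± 0.18 in vehicle mice (SD, n = 4 each, two-sided exact permutation p = 0.0571). Gng11 is known from endothelial cells among others. The mean of 9 vascular markers ran from -0.107 to 0.0503 across FTY720 mice and from -0.115 to 0.116 across vehicle mice. Of these 9 differences 5 were below 0, and 2 of those 5 stood at an unadjusted p under 0.05 (2.78% of all genes were lower at that p). The mean of 9 oligodendrocyte markers, like Gng11, was lowest in FTY720 6 (-0.323) and highest in vehicle 16 (0.373), with no overlap of the groups. All 9 of these differences were below 0 and at an unadjusted p under 0.05, with a median of -0.328. The part of either list in Gng11 was not tested.

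Gng2, a gamma subunit common in brain, had values of 8.35, 8.40, 8.68 and 8.49 in FTY720 mice, against 8.46, 8.47, 8.13 and 8.15 in vehicle mice. Vehicle 15 and 16 were low, and vehicle 13 and 14 lay among the FTY720 mice. The log2 difference was 0.18 (SE 0.10) and was 0.02 without those 2 mice. The second of its 2 probe sets gave 7.49, 7.44, 7.70 and 7.27 in FTY720 mice, against 7.47, 7.07, 6.85 and 6.61 in vehicle mice (log2 difference 0.48, SE 0.16). Here too vehicle 15 and 16 were lowest, but vehicle 14 also lay below every FTY720 mouse, and only vehicle 13 lay among them.

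Gng3, a neuronal gamma subunit, stood at 0.08 (SE 0.05) and overlapped between the groups. Gng12, which is known from glia, stood at 0.12 (SE 0.06, 95% interval -0.01 to 0.25), with vehicle 15 lowest at 8.42 and its other probe set at -0.05. The other gamma genes, named to account for the family, were Gng13 (0.07, or -0.06 without vehicle 15), Gng4 (0.06) and Gng10 (-0.01). Gng5 was represented only by probe sets shared with its pseudogene, and Gng7 was not analysed here.

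The beta subunits showed no member at an unadjusted p under 0.05. Gnb4 had values of 7.88, 7.66, 7.82 and 7.73 in FTY720 mice, against 7.75, 7.93, 8.58 and 7.89 in vehicle mice. Vehicle 15 alone was high, and the log2 difference of -0.27 (SE 0.16) was -0.09 without it. Gnb1, a widely expressed beta subunit, stood at 0.06 (SE 0.05, 95% interval -0.06 to 0.18), or 0.02 without vehicle 15. Another probe set of Gnb1 pointed the other way, at -0.12 (SE 0.05), with all FTY720 mice below all vehicle mice. Gnb2 stood at -0.02, Gnb3, a beta subunit of photoreceptors, at 0.08, and Gnb5, the beta subunit that pairs with RGS proteins of the R7 class, at -0.04 (SE 0.06).

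RGS genes had 13 negative (76.5%, beside 46.5% of all genes) and 4 positive differences, with a median of -0.09. At an unadjusted p under 0.05 stood 2 of 17 (11.8%, beside 6.64% of all genes). Vehicle 15 held the highest value of the 8 mice in 7 of the 17 (41.2%, beside 17.1% of all genes) and vehicle 16 in 5 (29.4%, beside 15.2% of all genes). Without vehicle 15 alone 14 of the 17 were negative (median -0.0809), beside 6057 of all 12393 genes. Without vehicle 16 alone 11 were negative (median -0.0653), beside 5729 of all genes. Without both mice 9 of the 17 were negative, beside 6189 of all genes. The median was then -0.009, beside a median of 6.25e-05 for all genes. 

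**Figure D3:**
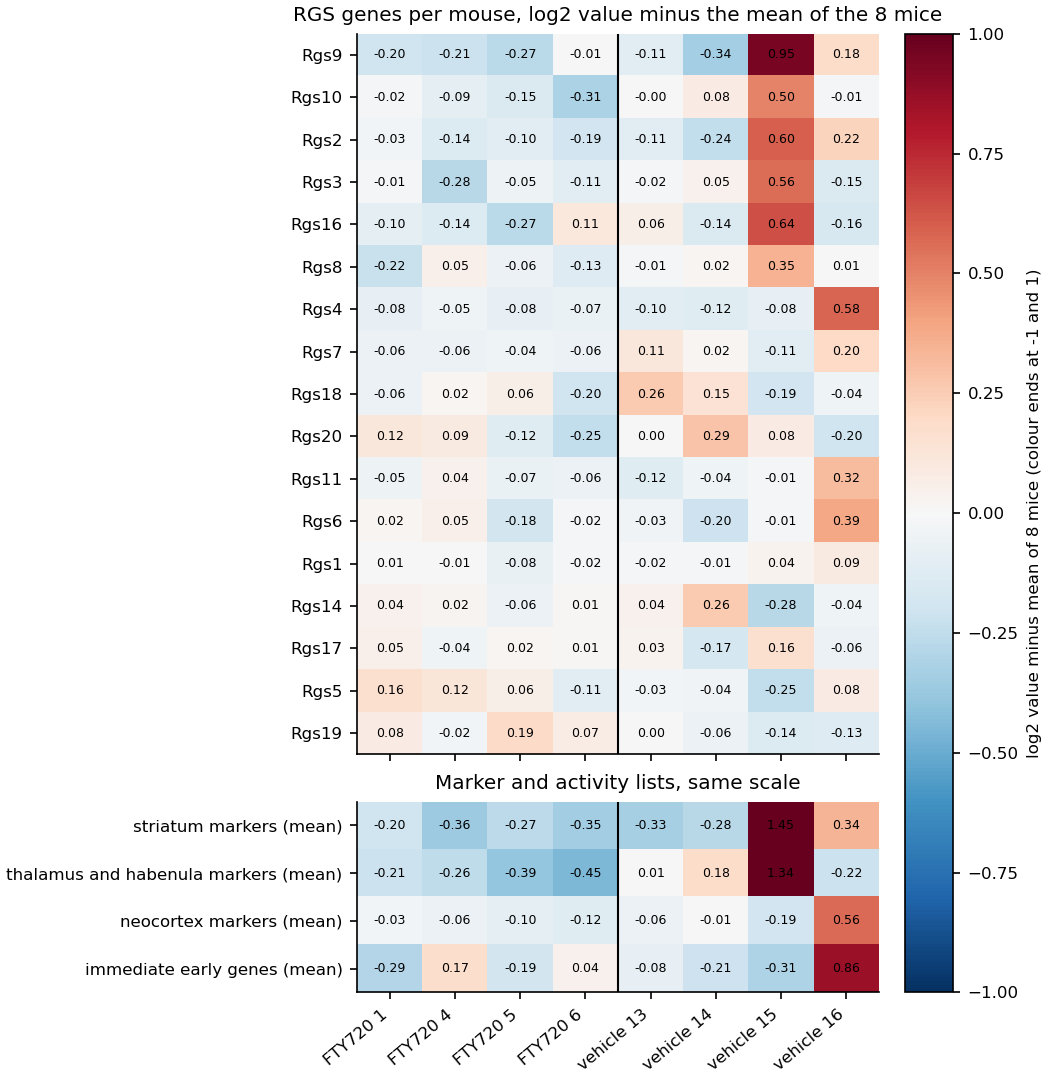
Log2 value minus the mean of the 8 mice for each of the 17 RGS genes (rows of the upper block), and means of 4 marker and activity lists on the same scale (lower block), with FTY720 mice left of the line and vehicle mice right of it. Vehicle 15 is high for Rgs9, Rgs16, Rgs2, Rgs3 and Rgs10 and for striatum and thalamus markers, and vehicle 16 is high for Rgs4, Rgs6 and Rgs11 and for neocortex markers and immediate early genes.

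In the R4 class, small RGS proteins that act on Gi and Gq, 7 of 8 genes had negative differences (87.5%, beside 46.5% of all genes). Rgs2, a regulator selective for Gq that neurons induce with activity, had values of 9.65, 9.54, 9.58 and 9.49 in FTY720 mice, against 9.57, 9.44, 10.28 and 9.90 in vehicle mice. Vehicle 15 and 16 were high and vehicle 14 was the lowest of all. The difference of Rgs2 was -0.23 (SE 0.16, limma adjusted p = 0.823), and 0.06 without vehicle 15 and 16. Rgs4, a regulator of Gi and Gq that is prominent in cortical neurons, had values of 9.58, 9.62, 9.58 and 9.59 in FTY720 mice, against 9.56, 9.54, 9.58 and 10.24 in vehicle mice. The other 7 mice lay between 9.54 and 9.62, and vehicle 16 stood alone above them in each of the 3 Rgs4 probe sets. The log2 difference was -0.14 (SE 0.14) and was 0.03 without vehicle 16.

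The immediate early gene mean was highest in vehicle 16 (0.86), the mouse that was highest for Rgs4, and lowest in vehicle 15 (-0.31), the mouse that was highest for Rgs2. The promoters of both genes are shown because they were the 2 RGS genes with more than 1 core of the cyclic AMP response element. The cyclic AMP response element, to which CREB binds, is TGACGTCA, and its core, TGACG, was searched on both strands, so that a full site holds 2 overlapping cores. The 250 bases before the start of each gene, from RefSeq on GRCm38.p6, are printed 5' to 3' with cores in capitals. Rgs2 lies on the minus strand and the window is chr1:144004150-144004399, and Rgs4 lies on the minus strand with the window chr1:169747643-169747892.
Rgs2: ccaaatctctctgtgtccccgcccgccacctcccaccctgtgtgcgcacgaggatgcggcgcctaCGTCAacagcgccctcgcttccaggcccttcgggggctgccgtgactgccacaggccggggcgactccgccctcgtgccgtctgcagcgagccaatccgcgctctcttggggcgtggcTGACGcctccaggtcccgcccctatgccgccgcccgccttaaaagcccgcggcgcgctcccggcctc
Rgs4: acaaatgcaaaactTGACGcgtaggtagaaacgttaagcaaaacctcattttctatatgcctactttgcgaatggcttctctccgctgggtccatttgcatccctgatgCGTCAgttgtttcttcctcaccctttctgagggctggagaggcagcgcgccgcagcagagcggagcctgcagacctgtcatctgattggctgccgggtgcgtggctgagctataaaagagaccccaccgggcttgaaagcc
Each window held 2 cores, which begin 185 and 67 bases before the start in Rgs2 and 236 and 141 bases before it in Rgs4. Of all RefSeq promoter windows of this length, 17.8% held at least 1 core, 3.9% at least 2 and 1.55% the full site. The 37 members with a window had 51 windows, since some genes have several. Counted per gene over any of its windows, 8 held at least 1 core, 4 held 2 (Rgs2, Rgs4, Gnb1 and Gng4) and none held the full site. These counts per gene are not on the same footing as the shares per window. A match of letters is a description and not a binding site.

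Rgs8, an R4 protein best known from Purkinje cells, had values of 7.87, 8.14, 8.03 and 7.97 in FTY720 mice, against 8.08, 8.11, 8.44 and 8.10 in vehicle mice. Vehicle 15 was high, and the log2 difference of -0.18 (SE 0.09) was -0.09 without it. Rgs3 (-0.22, or -0.07 without vehicle 15) and Rgs16 (-0.20, or -0.02 without vehicle 15) followed the same mouse, and are named to account for the class. Rgs5, a marker of pericytes, was the 1 positive R4 gene, at 0.12 (SE 0.08), with all 4 probe sets positive. It stood at 0.05 without vehicle 15. Rgs1 (-0.05) and Rgs18 (-0.09), known from blood and immune cells, were dim, both below the lower quartile of all genes.

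The R7 class pairs with Gnb5 and acts on Gi/o, and all 4 measured members had negative differences, beside 46.5% of all genes. Rgs9, which is concentrated in striatum and photoreceptors, had values of 7.86, 7.85, 7.79 and 8.05 in FTY720 mice, against 7.95, 7.72, 9.01 and 8.24 in vehicle mice. Vehicle 15 stood far above the rest, as it did for striatum markers, and vehicle 16 was next on both. A second probe set of Rgs9 stood at 0.03. The difference of Rgs9 was -0.34 (SE 0.23, limma adjusted p = 0.823), -0.08 without vehicle 15 and 0.04 with the striatum marker mean as a covariate. Rgs7, the R7 member of most brain neurons, had values of 10.05, 10.05, 10.07 and 10.05 in FTY720 mice, against 10.22, 10.13, 10.00 and 10.31 in vehicle mice. Vehicle 15 was the lowest of all 8, and the log2 difference was -0.11 (SE 0.07), -0.17 without vehicle 15, where it stood at an unadjusted p under 0.05, and -0.07 without vehicle 16. Rgs6 (-0.07) and Rgs11 (-0.07) were highest in vehicle 16 and stood at 0.05 and 0.02 without it. The second probe set of Rgs6 gave 4.81, 4.77, 4.78 and 4.67 in FTY720 mice, against 4.91, 4.95, 4.85 and 5.07 in vehicle mice. There all FTY720 mice lay below all vehicle mice (difference -0.18, SE 0.06).

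Rgs10, an R12 class regulator found in microglia and neurons, had values of 9.24, 9.16, 9.10 and 8.94 in FTY720 mice, against 9.25, 9.34, 9.75 and 9.24 in vehicle mice. All FTY720 mice lay below all vehicle mice, but the gap between the groups was only 0.0051. Vehicle 15 was highest, and the log2 difference of -0.29 (SE 0.12, 95% interval -0.54 to -0.03, limma adjusted p = 0.735) was -0.17 without it. Rgs10 was then no longer at an unadjusted p under 0.05, which it kept in 11 of 18 alternative fits. The mean of 8 microglia markers ran from -0.07 to 0.03 across FTY720 mice and from -0.17 to 0.12 across vehicle mice, and was lowest in vehicle 15. Rgs14, an R12 protein that marks area CA2 of the hippocampus, had values of 9.62, 9.60, 9.52 and 9.59 in FTY720 mice, against 9.62, 9.84, 9.31 and 9.54 in vehicle mice. Vehicle 14 was highest and vehicle 15 lowest, and the log2 difference was 0.01 (SE 0.10), -0.08 without vehicle 15 and 0.10 without vehicle 14.

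In the RZ class, Rgs19, an RGS protein that binds Gi alpha subunits, had values of 8.50, 8.40, 8.61 and 8.49 in FTY720 mice, against 8.42, 8.36, 8.28 and 8.29 in vehicle mice. The groups overlapped through FTY720 4 and vehicle 13. The log2 difference was 0.16 (SE 0.06, 95% interval 0.03 to 0.29, limma adjusted p = 0.719). The other probe set of Rgs19, which is of a type prone to cross-hybridisation, stood at -0.10 (SE 0.11), and the mean of both gave 0.03. Rgs19 kept an unadjusted p under 0.05 in 9 of 17 alternative fits, and lost it without vehicle 15 and without vehicle 16. Rgs17 (0.02) and Rgs20 (-0.08) complete the class.

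**Figure D4:**
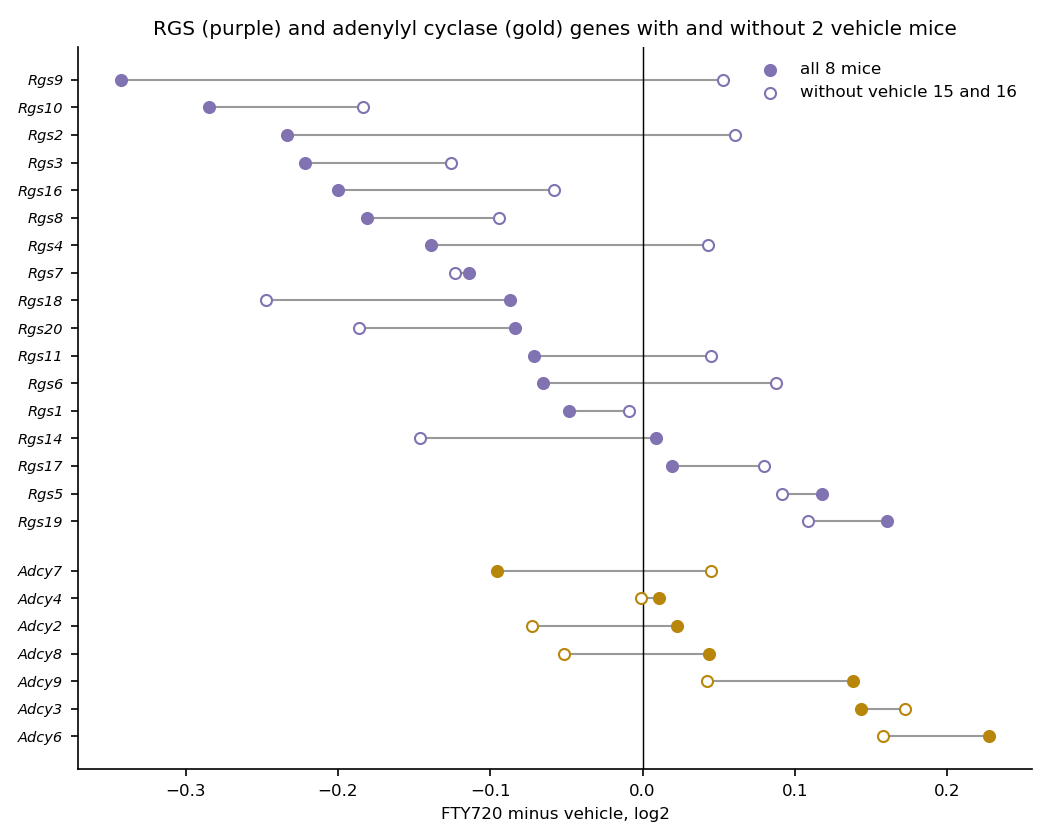
Log2 difference, FTY720 minus vehicle, of the 17 RGS genes and 7 adenylyl cyclase genes with all 8 mice (filled circles) and without vehicle 15 and 16 (open circles). Rgs9, Rgs2, Rgs4, Rgs6, Rgs11 and Adcy7 move from below 0 to above 0. Rgs14, Adcy2, Adcy4 and Adcy8 move from above 0 to below 0, while Adcy3 and Adcy6 stay above 0.14.

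The partners of these proteins in the pathway, in 5 lists of measured genes, gave no call over all genes either. Of 11 protein kinase A and cyclic AMP genes, 4 had positive and 7 negative differences (median -0.03). Among these, 2 stood at an unadjusted p under 0.05, beside 6.64% of all genes, and both were inhibitors of protein kinase A. Pkig, the gamma form of the inhibitor, had values of 9.76, 9.77, 9.74 and 9.53 in FTY720 mice, against 10.01, 10.01, 9.95 and 10.04 in vehicle mice. All FTY720 mice lay below all vehicle mice, and FTY720 6 was lowest. The log2 difference was -0.30 (SE 0.06, limma adjusted p = 0.634), and it stood at -0.32 without vehicle 15. Pkia, the alpha form, is named after its value was seen and stood at -0.17 (SE 0.07).

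Of 10 other regulators of G proteins, 4 had positive and 6 negative differences (median -0.01). Gpsm3, which binds Gi alpha subunits, had values of 5.39, 5.57, 5.19 and 5.28 in FTY720 mice, against 5.13, 5.18, 5.14 and 5.17 in vehicle mice. The groups were only just apart, between FTY720 5 and vehicle 14, at a signal below the median level of all genes (log2 difference 0.20, SE 0.08, limma adjusted p = 0.726). Rasd2, named after its value was seen, is on this list and also among the striatum markers. It stood at -0.41 (SE 0.19) and at -0.19 without vehicle 15, where it was highest. Its groups were only just apart, at 7.916 in FTY720 1 and 7.917 in vehicle 13. The 4 phospholipase C beta genes split into 2 positive and 2 negative. Plcb1, the target of Gq in hippocampal neurons, stood at 0.33 (SE 0.15), with overlapping groups and the lowest values in vehicle 15 and 16, and at 0.11 without those mice. No member of the 5 receptor kinase and arrestin genes or the 4 GIRK channel genes stood at an unadjusted p under 0.05. The leading members of both lists were Arrb2 at 0.08 (SE 0.06) and Kcnj6 at -0.05 (SE 0.07).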

How the data were processed

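Hippocampal RNA of 8 mice was measured on 1 array each. The values deposited by the authors are log2 expression values, as their range shows. The submitters' processing notes list RMA, MAS5 and Expression Console without saying which step each did. Scan dates and a build are not given in the sources used here, so batches were not tested. Background signal compresses differences of dim probe sets.

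Of 22690 probe sets, 20380 had 1 gene symbol, 691 several and 1619 none or were controls, and none of several genes was used. Per gene, the probe set of highest mean was taken (12393 genes). Those taken for Gna13, Gnai1, Gnas and Adcy7 are of a type prone to cross-hybridisation. Of the members, 26 had more than 1 probe set, and in 17 of these all probe sets shared a sign. No filter on low signal and no pseudocount was applied, so all 51 members were tested, 37 of them above the median level.

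The 4 FTY720 and 4 vehicle arrays were set against each other in R 4.3.3 by limma 3.58.1 (lmFit, eBayes, no covariate), with Benjamini-Hochberg adjustment over all genes. SE and 95% intervals are those of the moderated fit. The fit was tested on simulated data. Named were members at an unadjusted p under 0.05 or without overlap, the 3 of smallest p per family, the 3 brightest and dimmest, a list of members known from hippocampus, striatum or receptor coupling, and the leading gene of each pathway list. 1 pathway list is not reported here. The members, lists and alternatives were chosen with earlier results of these data known. The alternatives were quantile normalization, a filter on dim genes, other choices of probe set, trended, robust and array-weighted fits, leaving out mice, and the Gapdh 5' minus 3' value or the striatum marker mean as a covariate.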

Additional observations from a re-analysis of the deposited data

Results flagged for a closer look

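In 9 of the 94 groups of 4 mice tested, 1 mouse stood apart from the other 3 of its group by more than Dixon's 95% limit, where chance gives about 1 in 20, or 4.7. Vehicle 15 was low for Adcy2 at 9.59 (the other vehicle mice between 9.91 and 9.96), for Adcy9 at 9.77 (10.08 to 10.13) and for Gng12 at 8.42 (8.55 to 8.58), and high for Rgs8 at 8.44 (8.08 to 8.11). Vehicle 16 was high for Rgs4 at 10.24 (the other vehicle mice between 9.54 and 9.58) and for Gng11 at 8.71 (8.58 to 8.60). FTY720 6 was low for Gna12 at 7.98 (the other FTY720 mice between 8.21 and 8.23) and for Pkig at 9.53 (9.74 to 9.77), and FTY720 4 was low for Gnai2 at 9.88 (9.95 to 9.96).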

How the results depend on the processing

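Calls at an adjusted p of 0.05 numbered 0 in each of the 18 alternative limma fits. Members at an unadjusted p under 0.05 numbered 4 to 8, and 4 to 7 when single mice were left out. Over the alternatives these were 7.84% to 16.7% of the members tested, beside 4.08% to 8.55% of all genes. When single mice were left out they were 7.84% to 13.7%, beside 5.16% to 7.79% of all genes. The filter on dim genes left 37 members and the filter on probe set type 42. Over all genes the number at that p was 823 in the main fit and 506 with the Gapdh covariate. It was 530 among genes above the median level, where fewer genes were tested. The RGS median (-0.09 with all mice) was -0.139 among genes above the median level, -0.00877 without vehicle 15 and 16, -0.0221 with the Gapdh and -0.0382 with the striatum covariate, and -0.126 to -0.0653 without single mice. The G alpha median was -0.0141 without vehicle 15 and 16, -0.0136 with the striatum covariate and -0.00673 to 0.0392 without single mice. The G gamma median was 0.0197 without vehicle 15 and 16 and 0.0537 to 0.0907 without single mice. The adenylyl cyclase median was 0.0945 with the Gapdh covariate and 0.00176 to 0.123 without single mice. The G beta median (-0.02 with all mice) was -0.0592 without vehicle 15 and 16, with all 5 genes negative, and -0.038 to 0.0115 without single mice. With array weights the adenylyl cyclase median was -0.00651 and the G alpha median -0.0058.

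Of 42 named genes, 23 kept their sign in every alternative and 19 did not. The cause was not tested. Without vehicle 15 and 16 the sign turned for Gnas (-0.00135), Gnb1 (-0.004), Gna13 (-0.00609), Gnasas1 (-0.0189), Gna11 (-0.022), Adcy8 (-0.0518), Gnb3 (-0.0592), Adcy2 (-0.0727), Gnaz (-0.075), Rgs14 (-0.146), Rgs4 (0.0432), Rgs9 (0.053) and Rgs2 (0.0605). With the striatum covariate it turned for Gnb1 (-0.00174), Gnb3 (-0.00841), Gna11 (-0.0125), Adcy8 (-0.03), Gnaz (-0.0726), Adcy2 (-0.0924), Rgs14 (-0.131), Gnb5 (0.00447), Rgs2 (0.0298) and Rgs9 (0.0418). With the Gapdh covariate it turned for Gnas (-0.00431), Gnb3 (-0.0344), Gnai3 (0.00239), Gnao1 (0.00919), Gnat1 (0.0535) and Rgs4 (0.136). With array weights it turned for Gna14 (-0.00157), Gnb3 (-0.00392), Gnaz (-0.013), Adcy8 (-0.0221), Adcy2 (-0.0311) and Rgs14 (-0.0473). With the mean of all probe sets it turned for Kcnj6 (0.00163). Without single mice the values ranged from -0.062 to 0.0629 for Adcy2, -0.00186 to 0.123 for Adcy8, -0.00547 to 0.106 for Gna14, -0.0436 to 0.0176 for Gnai3, -0.0383 to 0.0208 for Gnat1, -0.0383 to 0.0824 for Gnaz, -0.0812 to 0.0976 for Rgs14 and -0.202 to 0.0321 for Rgs4. No paired analysis was possible because the groups share no replicate numbers. Signal over background limits the dim members.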
